A study of Mus musculus with 8 samples.

Results

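The loci described here are stretches of RNA that a short-read assembly placed just past the end of a protein-coding gene and that the GENCODE M21 annotation of the mm10 mouse genome leaves without a gene. A locus was taken when it carried an assembler's name instead of an annotated one, lay on an autosome, shared no base with any annotated gene on its own strand, and began 1 to 5000 bp past the 3′ end of a protein-coding gene on that strand. It also had to be above 0 in at least 1 of the 6 short-read libraries. Of 20637 assembled loci, 18764 were on autosomes and above 0, 3038 of these had no annotated gene on their strand, and 180 met the distance rule. They lay past 175 genes, and 5 genes had 2 loci each. The other 2858 unannotated loci lay farther away and served as the comparison.

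HL1 cells, a cardiac muscle line derived from mouse atrial tumour cells, were grown with 0.1 mM norepinephrine and 10% serum in every group. Nuclei were extracted with a mild urea and detergent buffer, which leaves RNA held on chromatin in the pellet (the chromatin fraction) and soluble RNA in the supernatant (the nucleoplasm fraction). Each fraction gave 3 short-read libraries, made from 100 ng of RNA and read as 50 bp single-end stranded reads, and the chromatin fraction gave 2 long-read libraries. All samples come from 1 untreated cell line, so every difference below is a difference between nuclear fractions.

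Transcription by RNA polymerase II runs on past the end of a gene. The nascent transcript is cut downstream of a polyadenylation signal, the polymerase continues until it is released, and the RNA it makes beyond the cut is normally short-lived and stays near chromatin. RNA found past a gene can therefore be readthrough of the gene, an unannotated longer 3′ end, an independent noncoding RNA with its own start, or another copy of a repeat. The short-read table gives spans and counts and does not distinguish these.

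Windows around the polyadenylation signal in the last 50 bases of annotated transcripts (GENCODE M21, mm10) show where some upstream genes end. They were chosen from genes with AATAAA there whose loci stood out below. BC034090 and Emc3, also named below, have ATTAAA instead. Capitals mark the hexamer AATAAA.
Atp6v1c1, chr15:38692413-38692442, plus strand: ggaccagttttgAATAAAgtgtagcaaaac
Rab11a, chr9:64715307-64715336, minus strand: catcctcatcctAATAAAcagttacagggg
Arf2, chr11:103985301-103985330, plus strand: gattggttagacAATAAAgaacttactggg
Fam174b, chr7:73776871-73776900, plus strand: cgtaggcacttaAATAAAgatccttaaagc
Zkscan3, chr13:21387013-21387042, minus strand: aatgagtttcagAATAAAgtgatcaatgtc
Pip5k1b, chr19:24294797-24294826, minus strand: tttattgaaagaAATAAAatattttgttct
AATAAA or ATTAAA was present in the last 50 bases of 125 of the 175 upstream genes (71.4%) and of 14933 of 20807 coding genes on autosomes (71.8%), so an annotated signal was as common at these genes as elsewhere. These loci therefore lie past gene ends that mostly carry a signal in the annotation. The ends of the loci were not read, because the genome sequence was not used here.

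Some loci began where RefSeq, a second annotation, starts a gene model of its own. For 14 of the 180 loci a RefSeq start on the same strand lay within 50 bp of the locus's first base, and for 9 it was that base. Assembly was guided by an annotation, so a shared start can come from the guide. Of the 14 loci, 11 were higher in chromatin (78.6%, against 43.9% of the 180 loci and 26.9% of all features) and 0 were lower by limma, the test described below, with 0 lower also at an unadjusted p under 0.05, by edgeR and by DESeq2. Except past Epor (723 bp), these loci spanned at least 1000 bp. Of all loci that long 64.9% were higher, and of those that also overlap a RefSeq transcript 65.7% were higher and 0 lower. The part of the RefSeq start in the share was not tested. For 3 of the 14 loci the RefSeq window (250 bases before the start and 50 after, GRCm38.p6) is printed, with capitals for the bases inside the locus.
Past Senp1, RefSeq Gm41395, chr15:98036800-98037099, minus strand: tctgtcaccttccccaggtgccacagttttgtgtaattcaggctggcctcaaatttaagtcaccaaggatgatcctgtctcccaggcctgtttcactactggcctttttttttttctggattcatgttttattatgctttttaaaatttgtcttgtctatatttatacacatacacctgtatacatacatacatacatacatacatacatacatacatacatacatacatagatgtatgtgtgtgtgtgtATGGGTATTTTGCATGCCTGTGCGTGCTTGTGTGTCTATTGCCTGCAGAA
Past Fam174b, RefSeq Gm30236, chr7:73780290-73780589, plus strand: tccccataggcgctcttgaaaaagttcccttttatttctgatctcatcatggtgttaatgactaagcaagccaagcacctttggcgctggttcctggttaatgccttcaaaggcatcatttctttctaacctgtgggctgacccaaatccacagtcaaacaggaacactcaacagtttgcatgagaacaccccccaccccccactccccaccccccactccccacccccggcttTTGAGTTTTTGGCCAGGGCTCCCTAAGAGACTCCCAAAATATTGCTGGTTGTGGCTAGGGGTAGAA
Past Armh4, RefSeq Gm36082, chr14:49672745-49673044, minus strand: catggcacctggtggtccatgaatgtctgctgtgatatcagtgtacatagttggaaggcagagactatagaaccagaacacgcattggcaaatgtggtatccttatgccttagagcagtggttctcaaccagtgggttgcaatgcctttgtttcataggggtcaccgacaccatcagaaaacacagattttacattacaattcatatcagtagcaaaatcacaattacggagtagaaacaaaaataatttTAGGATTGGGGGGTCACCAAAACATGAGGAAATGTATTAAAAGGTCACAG
On either strand the letters TATAAA were in 5 of the 14 windows (35.7%) and in 13.6% of all 32851 RefSeq windows, CCAAT in 42.9% and 37.4%, and GGGCGG in 21.4% and 35.7%. With 14 windows these shares are a description. The median window held 3.5 CG pairs, against 7 over all windows.

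Each short-read library held between 91657034 and 121773350 recovered reads. The fractions separated as their names say: B2m, a cytoplasmic housekeeping mRNA, averaged 2363 normalized counts in chromatin and 14989 in nucleoplasm, and Malat1, a nuclear-retained noncoding RNA, 1628247 and 115045. Of 14 cardiomyocyte markers 11 were above 0, but Myh6, Myh7 and Tnnt2 had no named row above 0, and of 6 fibroblast markers Col1a1 and Col3a1 had chromatin means of 109925 and 32522, whereas Pdgfra, Col1a2, Dcn and Postn had 826, 126, 38.4 and 0. Summed over these 6, chromatin libraries held 120670 to 174008 normalized counts and nucleoplasm libraries 253853 to 461194. The sums over the cardiomyocyte markers were 274734 to 384760 and 107883 to 183708. Replicate 3 stood apart in both fractions. It was the highest chromatin library at 127 of the 180 loci (70.6%, against 43.9% of all features) and the highest of both fractions at 88 (48.9%, against 22.7%), so results without chromatin replicate 3 are given where they move. Among the 11 cardiomyocyte markers above 0, replicate 3 was the lowest library of its fraction at 9, among them Tnni3 (1509 in chromatin against 3637 and 4545), and the highest at 2, Gata4 and Mef2c (37937 against 20032 and 18238), in both fractions. Among the 6 fibroblast markers it was the highest at 5 in chromatin and at 6 in nucleoplasm. The part of that shift in the results was not tested.

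The loci took a small share of the RNA. Their normalized counts summed to 52363, 47905 and 70590 in the chromatin libraries and to 20063, 18477 and 20666 in the nucleoplasm libraries, or 0.0512%, 0.0489% and 0.0740% against 0.0195%, 0.0159% and 0.0234% of each library. All chromatin sums lay above all nucleoplasm sums. The 10 most abundant loci made up 45.2% of the chromatin sum. At 150 loci all 6 libraries were above 0, at 11 all nucleoplasm libraries were at 0, and at 3 all chromatin libraries were.

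Spans ran from 200 to 56814 bp with a median of 1055 bp, and gaps from 2 to 4946 bp with a median of 2720 bp. The shortest gap was at Frem2, an extracellular matrix protein gene. The longest spans lay past Antxr2, an anthrax toxin receptor gene, at 56814 bp and past Gpatch1 at 40359 bp. Annotation outside GENCODE covered part of the set: 71 loci (39.4%) overlapped a RefSeq transcript on their own strand. On the opposite strand, 68 loci (37.8%) overlapped a GENCODE gene. On their own strand, 7 loci ended within 1000 bp of the next gene. Among the farther loci the shares were 37.7% and 42.8%, close to those of the downstream loci.

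**Figure D1:**
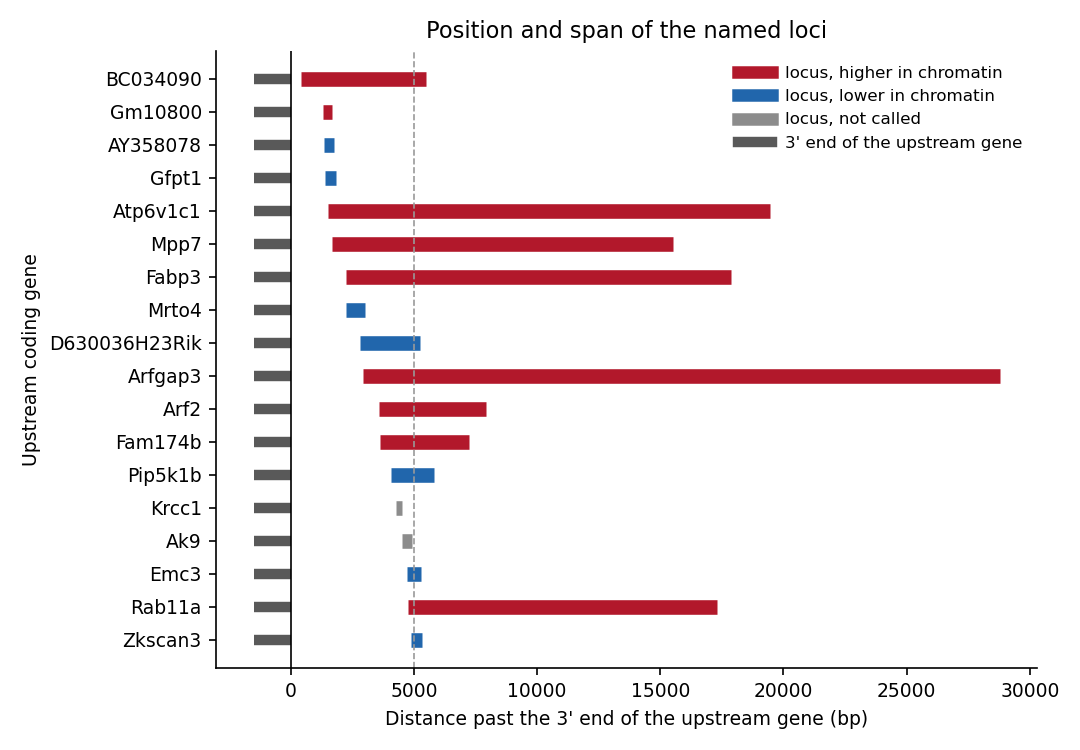
Position of the loci named for level, for change in fraction, for difference from the gene, or for a cardiomyocyte upstream gene, as distance in bp past the 3′ end of the upstream gene (dark bar, cut short), coloured by the call in chromatin. Loci called higher in chromatin include long ones such as those past Arfgap3 and Atp6v1c1, whereas the lower ones shown are at most 2403 bp long.

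The first comparison asked which loci were held on chromatin. With limma on log2(normalized count + 1) and Benjamini-Hochberg adjustment over all 35830 features above 0, 79 of the 180 loci rose in chromatin at an adjusted p under 0.05, 17 fell and 84 passed in neither direction. This fit did not pair libraries by replicate number, and the counts with the number as a block are given at the end. Over all features 26.9% were higher and 20.9% lower, whereas of the loci 43.9% were higher and 9.44% lower. The farther unannotated loci gave 44.4% and 10.3%, so the shares near a gene end were close to those of unannotated loci in general. The chromatin and nucleoplasm libraries did not overlap at 115 loci: all chromatin values were above at 94 (all features: 31.5%) and below at 21 (all features: 23.8%). The median log2 fold change was 1.22 over the loci and 0.38 over all features. With groups at 0 set to the bound that 3 reads allow, it was 1.25.

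The size of the excess depended on the scaling. Scaling to the spike-in RNAs gave 95 higher and 6 lower loci (94.1% of calls higher) with a median of 1.90 against 0.84 over all features. Quantile normalization gave 59 and 28 (67.8%) with 0.42 against 0.01, and the deposited scaling 82.3%. Without chromatin replicate 3 the median was 0.99 against 0.23.

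The study defined chromatin-enriched RNA by a fold change over 4, an adjusted p under 0.05 and a length over 200 bp, from DESeq2. With the same limits applied to the limma fit used here, 63 loci (35.0%) qualified, against 15.4% of all features and 28.2% of farther loci. With DESeq2 on recovered reads it was 62 of the 168 loci given an adjusted p (36.9%). The pseudocount mattered here: at 10 instead of 1 the count was 40. A test against a 4 fold change itself (limma treat) kept 30.

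Among loci averaging at least 100 normalized counts, 6 had the largest rises. Past BC034090 the 3 chromatin libraries read 616, 519 and 639 and the nucleoplasm libraries 32.3, 21.6 and 37.7 (log2 fold change 4.26, SE 0.24, limma adjusted p = 5.1e-05). Past Atp6v1c1, a subunit of the vacuolar proton pump, the values were 2471, 2047 and 3616 against 142, 134 and 234 (3.99, SE 0.30). The groups were far apart at both loci. Past Arf2, a small GTPase of the Golgi, chromatin read 838, 727 and 1166 and nucleoplasm 58.6, 37.2 and 79.0 (3.98, SE 0.32). Past Arfgap3, which switches off such GTPases, the values were 251, 208 and 450 against 15.2, 9.59 and 25.4 (4.12, SE 0.45). The locus past Mpp7, a cell polarity scaffold, read 2425, 2165 and 2518 against 146, 103 and 162 (4.13, SE 0.19). At all of these, and at the locus past Gm10800 described next, every chromatin library exceeded every nucleoplasm library.

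The locus past Gm10800 rose by a similar factor but rested on an uneven group. Its 344 bp read 1089, 937 and 5753 in chromatin and 60.6, 69.5 and 215 in nucleoplasm (4.20, SE 0.84, limma adjusted p = 0.00704), so replicate 3 was the highest library of both fractions. Together with the loci past Gm10801 and Gm11168 it lies in regions known for satellite repeats, where short reads fit many places, and its level is uncertain for that reason. The loci past Gm10800 and Gm10801 overlap each other on opposite strands. Without these 4 loci the higher share was 42.6%.

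Falls were smaller and mostly at short loci. The locus past Emc3, a subunit that inserts proteins into the endoplasmic reticulum membrane, read 116, 116 and 111 in chromatin and 671, 590 and 457 in nucleoplasm (log2 fold change -2.29, SE 0.17, limma adjusted p = 0.000117). Past Zkscan3, a zinc finger regulator of autophagy genes, the values were 239, 260 and 248 against 866, 759 and 743 (-1.66, SE 0.11). Past Pip5k1b, a phosphoinositide kinase, they were 989, 1055 and 719 against 2929, 2326 and 2263 (-1.45, SE 0.18). All 3 loci had chromatin libraries below all nucleoplasm libraries and stayed lower under spike-in scaling. The locus past AY358078 read 84.4, 99.6 and 89.5 against 274, 259 and 265 (-1.54, SE 0.14) and was also lower under it.

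The other named falls depended on scaling. Past Gfpt1, the entry enzyme of hexosamine synthesis, chromatin read 65.1, 48.2 and 61.4 and nucleoplasm 166, 153 and 170 (-1.48, SE 0.19), and past Mrto4, a ribosome assembly factor, 67.1, 66.0 and 57.2 against 141, 153 and 174 (-1.29, SE 0.17). Neither passed under spike-in scaling (-0.75, adjusted p = 0.0798 and -0.56, adjusted p = 0.167). The locus past D630036H23Rik, a coding gene with no row above 0 of its own, read 2370, 2421 and 2168 against 3289, 3132 and 3180 (-0.47, SE 0.08), and spike-in scaling turned it to 0.27. The locus past Abhd15, noticed after the values were seen, read 12.1, 18.0 and 39.9 in nucleoplasm and 1.02, 1.05 and 1.04 in chromatin, where each chromatin value is 1 read.

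**Figure D2:**
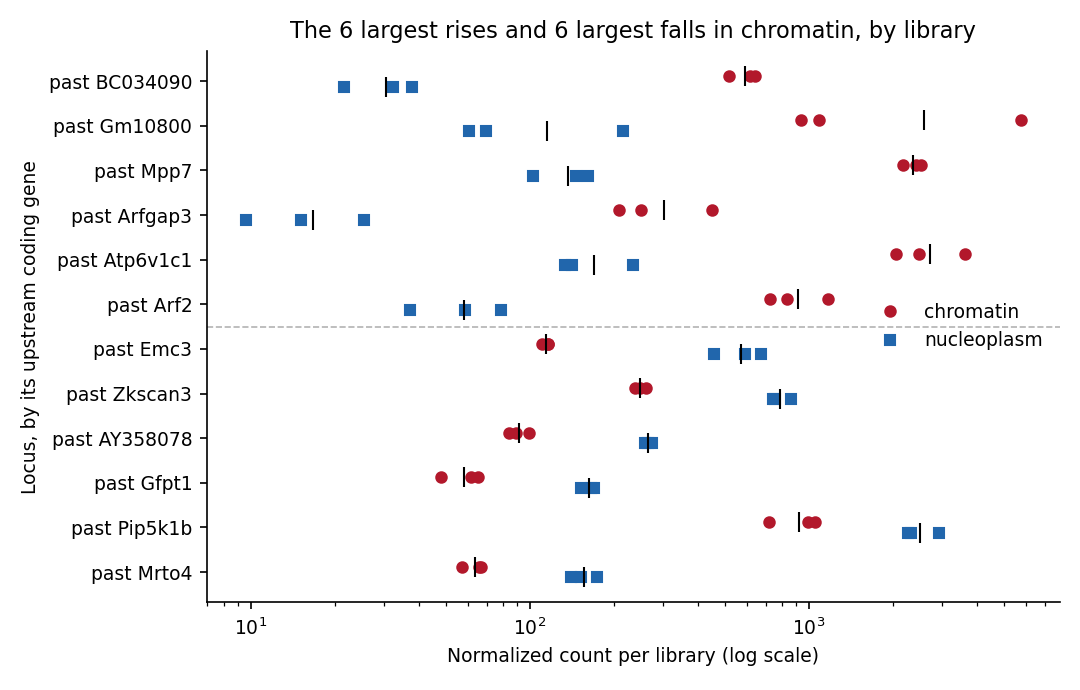
Normalized count in each of the 6 libraries (log axis) for the loci with the largest rises (above the dashed line) and falls (below it), circles for chromatin, squares for nucleoplasm and ticks for group means. The fractions do not overlap at any of the 12 loci, and the locus past Gm10800 has 1 chromatin library at 5753 and the others at 1089 and 937.

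Calls differed with span. Of the 94 loci spanning at least 1000 bp, 61 rose (64.9%, against 26.9% of all features), 2 fell (2.13%, against 20.9%), 31 passed in neither direction and 52 were chromatin-enriched by these limits in limma, with a median log2 fold change of 2.39. Of the 86 shorter loci, 18 rose (20.9%), 15 fell (17.4%), 53 passed in neither direction and 11 were enriched, with a median of 0.37 against 0.38 over all features. Over features averaging at least 10 normalized counts that median was 0.05, and the median level of the short loci was 59.3. The shares of the short loci were near or below those of all features. The 2 long loci that fell were those past Pip5k1b and D630036H23Rik. The farther loci split alike: 789 of 1458 long ones rose and 50 fell, and 481 of 1400 short ones rose and 245 fell. The span division was chosen after the values were seen. Assembly was guided by an annotation, so a span can come from the guide, introns included, and need not be the length of the RNA. A RefSeq transcript on the same strand overlapped 71.3% of the long loci and 4.65% of the short ones. Short loci were also the ones where replicate 3 was most often the highest library of both fractions, at 59 of 86 against 29 of 94.

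Loci that overlap a RefSeq transcript were mostly long. Of these 71, 44 rose (62.0%) and 1 fell (the one past Safb, a nuclear scaffold protein gene). Of the 109 without such an overlap 35 rose (32.1%), 16 fell (14.7%) and 25 were enriched by the same limits. Over all features 26.9% rose and 20.9% fell. RefSeq overlap and span cannot be told apart in the short class, where 4 loci overlapped RefSeq. In the long class, 44 of 67 loci with an overlap rose and 0 fell by limma (0 also at an unadjusted p under 0.05, by edgeR and by DESeq2), and 17 of 27 without one rose and 2 fell. There the median level over the 6 libraries was 20.6 normalized counts for loci with an overlap and 355 for those without. The farther loci did not show the same order. Of them 42.2% with an overlap rose and 45.8% without one, and in their long class 43.9% and 76.1%.

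**Figure D3:**
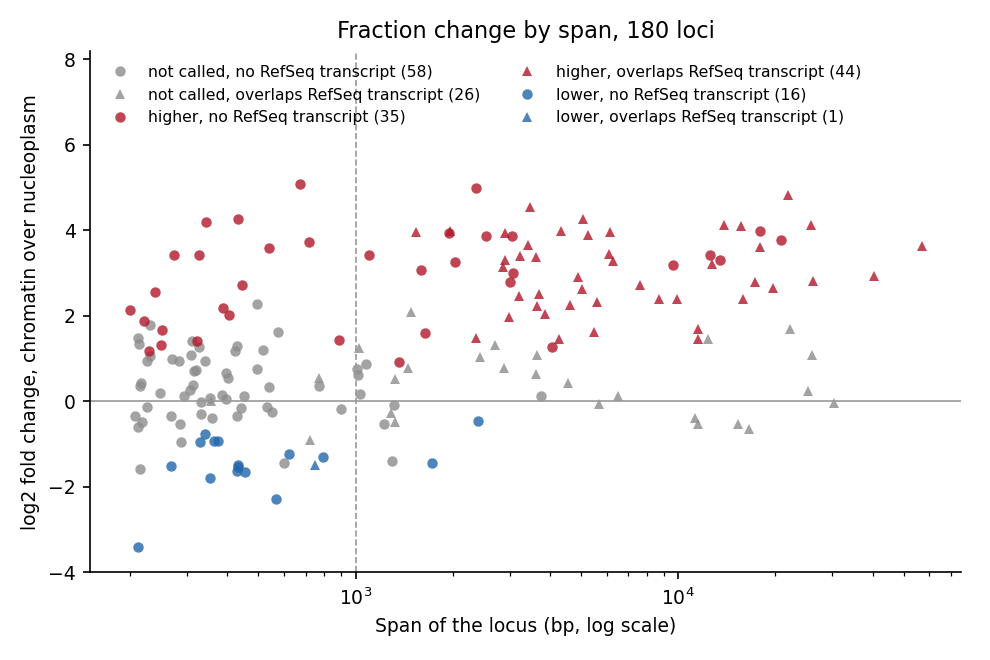
log2 fold change of chromatin over nucleoplasm against span in bp (log axis) for the 180 loci, coloured by call, with triangles for loci that overlap a RefSeq transcript on their strand. To the right of the dashed line at 1000 bp, 61 of 94 loci are higher and 2 lower, and to its left 18 of 86 are higher and 15 lower.

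Distance from the gene did not order the changes. In steps of 1000 bp from the gene end, 14 of 28, 16 of 43, 15 of 30, 22 of 41 and 12 of 38 loci rose (31.6% to 53.7%, against 26.9% of all features), with median log2 fold changes of 1.54, 0.94, 1.71, 1.68 and 0.85. The rule itself stops at 5000 bp. Just inside it were the loci past Sf3a3 (gap 4946 bp), Rps13 (4922 bp) and Zkscan3 (4866 bp), with log2 fold changes of 1.32, -0.30 and -1.66, of which the first rests on 1 chromatin library at 14.6 with all others at 0. Just outside were loci past Gm3625 (5074 bp), Gm3448 (5083 bp) and Cma2 (5085 bp), with -1.55, 0.43 and 2.68.

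The second comparison set each locus against its own upstream gene, which asks whether the RNA past the gene was distributed as the gene's RNA was. It used the difference of the log2 values of locus and gene in each library, tested with limma over 2372 pairs of an unannotated locus and an upstream coding gene at any distance. Of the 180 loci 145 could be tested, since 35 lay past a gene with no row above 0. The locus moved toward chromatin relative to its gene in 75 pairs (all pairs: 43.3%) and away from it in 7 (all pairs: 11.0%), that is in 51.7% and 4.83%. The median difference was 1.72 on the log2 scale, against 1.22 over all pairs. The upstream genes themselves had a median log2 fold change of -0.47 and the loci 1.20. In 53 of the 75 pairs the gene's log2 fold change was below 0. Without chromatin replicate 3 the median difference was 1.28, and 71 pairs passed.

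The 4 widest differences among well-covered pairs lay past Fam174b, Arfgap3, Rab11a and Atp6v1c1. Fam174b, a membrane protein gene, read 3215, 3773 and 2192 in chromatin and 8411, 9159 and 8611 in nucleoplasm, while the locus 3605 bp past it read 507, 442 and 727 against 45.5, 43.1 and 69.6. The difference was 4.93 (SE 0.45, limma adjusted p = 0.000396). The libraries of the 2 fractions did not overlap at gene or locus, and they were ordered oppositely. Rab11a, a GTPase of recycling endosomes, read 1568, 1469 and 1466 against 2977, 2802 and 2845, and its locus, a 12518 bp stretch, 2891, 2496 and 4204 against 270, 241 and 378 (difference 4.36, SE 0.34). For Arfgap3 the difference was 4.54 (SE 0.45), with the gene at 1773, 1830 and 1947 against 2396, 2570 and 2480. Atp6v1c1 was even between fractions, at 6240, 5677 and 4950 against 6263, 5740 and 4543, and its locus differed from it by 3.96 (SE 0.46).

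Among well-covered pairs, 3 went the other way. Zkscan3 itself was chromatin-rich, at 5116, 4776 and 5395 against 1274, 1268 and 1347, while the locus past it was lower in chromatin, and the difference was -3.63 (SE 0.24, limma adjusted p = 0.000159). Pip5k1b read 3577, 3320 and 1945 against 1389, 1329 and 746, with a difference of -2.81 (SE 0.32). For Gfpt1, at 6285, 6132 and 5270 against 9224, 7642 and 9846, gene and locus both leaned to nucleoplasm and differed by -0.89 (SE 0.26, limma adjusted p = 0.0272). That call was lost when chromatin replicate 1 or 2 or nucleoplasm replicate 1 or 2 was left out (adjusted p from 0.0645 to 0.0897). The other 4 pairs below their gene lay past Safb, Usp53, Rab5b and 1700018B08Rik, with differences of -2.14, -1.07, -0.97 and -3.62.

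Of the 17 loci that fell, 5 differed from their gene by this test, 7 did not pass and 5 had no gene row above 0. Emc3 read 1784, 1989 and 1855 in chromatin and 7140, 6863 and 6753 in nucleoplasm, and its locus differed from it by -0.41 (SE 0.25, limma adjusted p = 0.198). For AY358078 the difference was -0.06 (SE 0.27) and for Mrto4 -0.11 (SE 0.29). None of these 3 differences passed the test, which does not show that locus and gene were alike.

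Span separated the pairs as it had the loci. Of 81 pairs with a locus of at least 1000 bp, 61 lay above their gene and 1 below (all pairs: 43.3% and 11.0%), with a median difference of 2.63. Of 64 shorter ones, 14 lay above and 6 below, with a median of 0.29. The median log2 fold changes of the upstream genes were -0.27 and -0.63. Across the 145 pairs Pearson's r between the changes of locus and gene was 0.118 and Spearman's rho 0.102. These pairs share libraries and come from 141 genes, so the coefficients are a description.

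**Figure D4:**
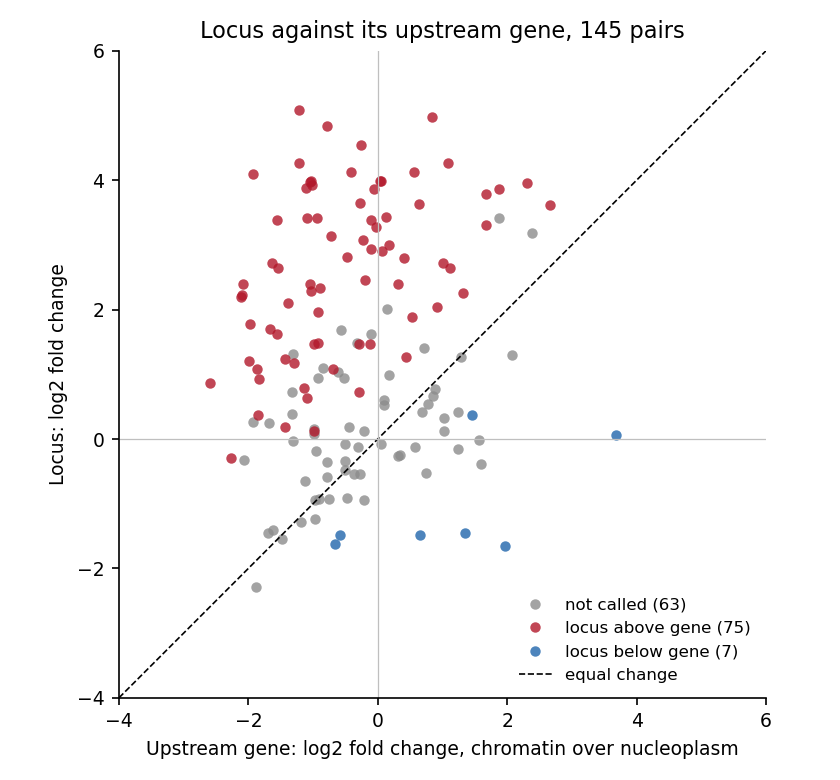
log2 fold change (chromatin over nucleoplasm) of each locus against that of its upstream gene for the 145 pairs tested, coloured by the test of their difference, with the dashed line for equal change. The 75 pairs above the line in red spread over gene changes on both sides of 0, and 7 pairs lie below it in blue.

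At 5 genes 2 loci followed the same gene. Past Oxct1, the enzyme that lets cells burn ketone bodies, the 2 loci read 103, 98.5 and 205 and 57.9, 51.4 and 102 in chromatin, and 5.05, 0 and 7.97 and 2.02, 3.60 and 2.17 in nucleoplasm. Their log2 fold changes were 5.09 (SE 0.89) and 4.27 (SE 0.42), while Oxct1 fell by 1.22. Both are below the minimum level used for naming and were chosen after their values were seen. Past Abce1, a ribosome recycling factor, the loci read 42.7, 55.5 and 55.2 and 118, 131 and 123 in chromatin and 101, 94.7 and 99.3 and 302, 273 and 300 in nucleoplasm. Both fell (-0.94 and -1.23), as Abce1 did with -0.97, although neither passed under spike-in scaling (-0.22 and -0.50).

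The loci past Gm11168 were chromatin-rich, at 2632, 2439 and 1836 and 541, 439 and 341 against 132, 131 and 185 and 34.4, 28.8 and 44.2 (3.94 and 3.58). Past Itga10, a collagen-binding integrin, and past Ide, the insulin-degrading enzyme, neither locus passed. Those past Itga10 had log2 fold changes of -0.16 and 0.42 and those past Ide -0.07 and -0.48, and the sign of each changed in at least 1 alternative setting. Loci past the same gene share a neighbourhood and possibly a transcript, so they are not independent.

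Levels were compared between features only per kilobase, over the span of a locus and over the joined exons of a gene. A span includes any introns of the locus, so the level of a spliced locus can be understated beside its gene. In the 126 pairs whose gene averaged at least 100, the locus stood at a median of 14.4% of the gene's level per kilobase in chromatin (quartiles 2.58% and 45.2%) and 3.34% in nucleoplasm (0.271% and 28.0%). The share was higher in chromatin in 104 of the 126. The locus exceeded its gene in 19 pairs in chromatin and in 14 in nucleoplasm. Spearman's rho between the levels of locus and gene per kilobase in chromatin was 0.067, and between gap and the locus's share of the gene 0.0558, both as descriptions over pairs that share libraries.

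By level per kilobase of span, 6 loci stood highest, 4 of them under 1000 bp long. The one past Gm10800 led with a mean of 3936 normalized counts per kb over the 6 libraries. Past Krcc1 a 225 bp locus averaged 3089 per kb, reading 396, 614 and 1049 in chromatin and 730, 819 and 562 in nucleoplasm. Its groups overlapped and it did not pass (-0.13, SE 0.36, limma adjusted p = 0.786). The locus past D630036H23Rik followed with 1149 per kb, Zkscan3 with 1146 and Pip5k1b with 991. Past Ak9, an adenylate kinase gene, the locus read 328, 312 and 395 against 196, 225 and 297, or 727 per kb, and missed the threshold (0.54, SE 0.19, limma adjusted p = 0.0637). When 1 library was left out its adjusted p ran from 0.0221 to 0.183, and only the fit without nucleoplasm replicate 3 passed (log2 fold change 0.71).

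Other long and abundant loci, named after their values were seen, lay past genes of several functions. Past Bmpr1a, a receptor for bone morphogenetic proteins, a 20851 bp locus read 2782, 2441 and 5223 in chromatin and 194, 201 and 347 in nucleoplasm (3.78, SE 0.36). Bmpr1a itself was chromatin-rich (1.67), and the difference was 2.11 (SE 0.42). Past Neil3, a DNA repair glycosylase, the values were 2976, 2416 and 2520 against 224, 189 and 230 (3.61, SE 0.13), and the gene had 2.66. Past Senp1, which removes SUMO from proteins, the locus that starts at the RefSeq model printed above read 669, 670 and 864 against 125, 103 and 103 (2.72, SE 0.16), with the gene at 1.01.

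The locus past Iffo1, an intermediate filament family gene, lies opposite Gapdh, a glycolytic enzyme gene. It read 71.2, 51.4 and 89.5 in chromatin and 1.01, 1.20 and 1.45 in nucleoplasm, which are 1, 1 and 2 reads (4.98, SE 0.38), while Gapdh fell from 12247 to 2938. The fractions thus ordered the strands oppositely. The locus past Alpk3, a kinase gene known from inherited heart muscle disease, read 1006, 984 and 816 against 274, 211 and 125 (2.26, SE 0.29) and overlaps RefSeq transcripts of Alpk3 itself.

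Long reads gave a separate look at the chromatin fraction. Per the paper, ribosomal RNA was removed with different kits for the short-read and long-read libraries of these cells. The long-read RNA was also polyadenylated and primed with polyT primers. The paper names internal priming as a possible source of truncated long-read transcripts, and its part here was not tested. A long-read model on the same strand and above 0 overlapped 120 of the 180 loci (66.7%, 95% Wilson interval 59.5% to 73.1%) and 1580 of the 2858 farther loci (55.3%, 53.5% to 57.1%). At 83 of the 120 a model assembled from the data was among them (46.1% of the 180 loci, and 38.9% of the farther loci), and at the other 37 all models carried a reference accession. Of the 58 overlapped loci that also overlap a RefSeq transcript, 21 had an assembled model. At 97 loci a model of either kind was above 0 in both libraries, and at 105 the models covered at least 50% of the locus. The intervals cover counting error only. The long-read assembly did not use strand information from the library, and on either strand 149 loci were overlapped. The median TPM of the models at the 120 loci was 4.25. The highest were at loci past Gm10801 (1360 and 2478 TPM), Gm10800 (893 and 1805) and Gm11168 (209 and 943 at the nearer locus, 217 and 1003 at the other). Across the 120 loci Spearman's rho between TPM and short-read level per kilobase in chromatin was 0.474, a description over loci that share libraries.

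Models that span both the gene and the locus were uncommon. At 18 loci (10.0%, 6.42% to 15.3%) 1 same-strand model overlapped the upstream gene as well, at 14 of them an assembled one, and 4 of the 18 were the satellite-rich loci. The others lay past Alpk3, Camk1, Gm3448, Gpatch1, Iffo1, Kctd4, Klhl35, Lonp1, Mto1, Ndufc1, Pigl, Syngr1, Ube2s and Zfp607a. None of the 12 loci with the largest rises and falls had such a model except the one past Gm10800. By distance, the joined loci numbered 5 of 28, 8 of 43, 2 of 30, 2 of 41 and 1 of 38 in steps of 1000 bp, and farther away 26 of 2858. Joining needs a model that crosses the gap, so a decline with distance follows from the geometry. Only spans are listed, so whether a model is spliced across the gap was not examined.

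**Figure D5:**
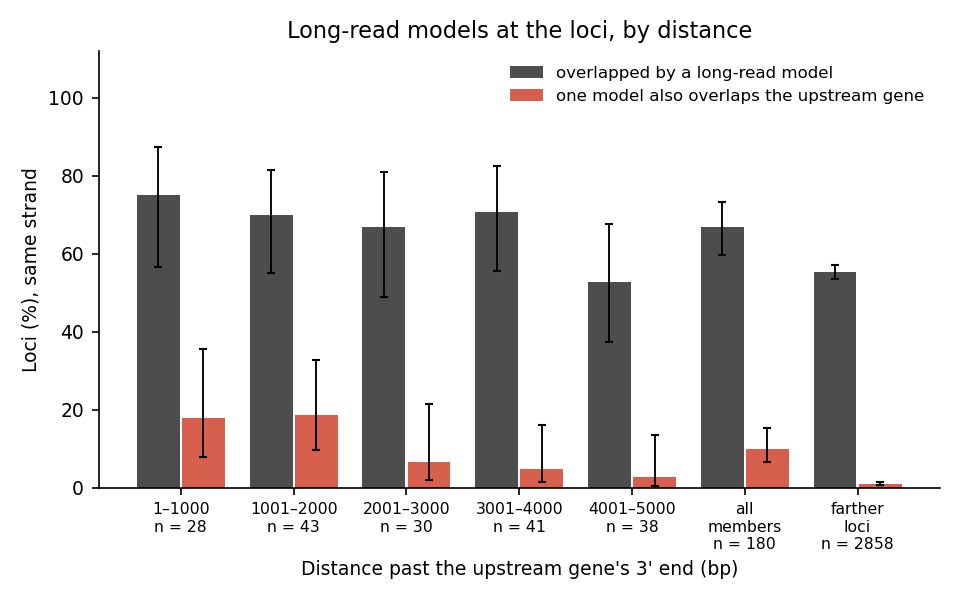
Share of loci (%) overlapped by a same-strand long-read model (grey) and share where 1 model also overlaps the upstream gene (red), by distance past the gene in bp, with 95% Wilson intervals as error bars. Overlap is 75.0% in the nearest step and 52.6% in the last, and joining models are 17.9% and 2.63%.

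The genes upstream were mostly active. Of the 180 loci, 103 lay past a gene averaging at least 1000 normalized counts, of which 53 rose (51.5%) and 11 fell (10.7%). Of the 35 past a gene with no assigned row above 0, 17 rose (48.6%) and 5 fell (14.3%). Over all features the shares were 26.9% and 20.9%. A gene without such a row need not be silent. Assembled loci were assigned to a gene only when they shared at least 0.5 of the joint span. Of 60 genes listed for cardiomyocytes, Fabp3, the heart fatty acid binding protein, had a locus (1.67%). The list of 35 immediate early and stress genes and the 67 replication-dependent histone genes had none. Of 103 housekeeping and translation genes Rps13 had 1 (0.971%). Over all 20807 coding genes 175 had a locus (0.841%), so lists of these sizes hold too few loci to compare.

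Fabp3 mRNA was nucleoplasmic, at 2454, 2947 and 1856 in chromatin and 10490, 10723 and 6610 in nucleoplasm. The locus past it, 15654 bp long, read 15.2, 17.8 and 98.9 against 0, 0 and 5.07, with replicate 3 highest in both fractions (4.10, SE 1.05, limma adjusted p = 0.0195). The call was lost in 5 of the 6 fits that left out 1 library, all except that without nucleoplasm replicate 3 (limma adjusted p from 0.0542 to 0.0823), with quantile normalization and with edgeR. It overlaps Zcchc17 on the opposite strand and a RefSeq transcript on its own. For Rps13, a ribosomal protein, the locus read 55.9, 80.7 and 109 against 96.0, 71.9 and 134, while the mRNA fell by 2.27, and the difference was 1.97 (SE 0.35, limma adjusted p = 0.00408).

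Genes of 3′ end processing and termination, whose products cut, polyadenylate or release transcripts, were examined as a list. Of 52 listed, 47 had a row above 0, of which 19 were higher in chromatin (40.4%, against 26.9% of all features) and 9 lower (19.1%, close to the 20.9% of all features) by limma, with a median log2 fold change of 0.19 against 0.38 over all features. All 47 averaged at least 100 normalized counts, and over features averaging at least 10 the median was 0.05. The shares of 26.9% and 20.9% cover features of all levels, and shares at a like level are not given. The largest rises were Ints6, an Integrator subunit, at 19010 against 4057 (2.22, SE 0.10) and Wdr33, which reads the AATAAA signal, at 20465 against 5626 (1.86, SE 0.09). The largest falls were Cstf2t, a cleavage stimulation factor, at 2468 against 5452 (-1.15, SE 0.08) and Clp1, a cleavage factor subunit, at 215 against 454 (-1.07, SE 0.17). Under spike-in scaling 29 were higher and 0 lower by limma (0 also at an unadjusted p under 0.05), and the transcript's fraction says nothing of the protein.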

How the data were processed

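Short reads were 50 bp, stranded, from 3 cultures. Per the labels and methods, the authors aligned them to mm10 with HISAT2 2.1.0, assembled with StringTie, merged both fractions, counted genes with the StringTie helper script and deposited the signal values analysed here, gene counts divided by DESeq2 size factors. The long-read tables give transcript TPM, which the authors computed with StringTie after minimap2 alignment and which keep no depth. No column was unmapped.

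Whole reads were recovered for 100% of values (tolerance 0.001). Fits used limma 3.58.1 (R 4.3.3, mean-variance trend) on log2(value + 1), which understates changes of low features. edgeR 4.0.16 and DESeq2 1.42.0 on recovered reads were alternatives; edgeR called 7735 features higher and 7657 lower. Fits were run on simulated reads with 200 features changed by 3 on the log2 scale. There limma recovered 79% of them with 3.07% of calls false, and the fit to pairs 62% with 6.06%. edgeR recovered 83% with 5.68% false. The simulation assumed a spread and had no shift of replicate 3, so it does not give the error rates in these data. Gene levels summed the rows assigned to the gene: assembled loci take the GENCODE gene that shares at least 0.5 of the joint span. Precision is limited by 3 libraries per fraction. Overlap meant 1 bp. The fraction field reads chromatin for all libraries, so titles set the groups.

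Named loci were the 6 highest per kb, the 6 largest rises and 6 largest falls (mean of at least 100, same direction in all 3 same-numbered pairs), the 4 widest differences from the gene each way, those past listed cardiomyocyte genes, those beside the distance limit, the 4 genes with most loci and the 4 highest in TPM. Endothelial, smooth muscle and immune marker sums spanned 1049 to 1828, 50479 to 79371 and 62.0 to 159 normalized counts in chromatin and 1755 to 2934, 146734 to 202665 and 39.4 to 58.7 in nucleoplasm (Cdh5 and Adgre1 at 0); Pvt1, a chromatin control, averaged 27865 and 1818. Members and lists were chosen with earlier results of these data known.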

Additional observations from a re-analysis of the deposited data

How the results depend on the processing

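Limits come from 3 libraries per fraction, loci of few reads, and long-read tables without depth. Percentages here are of the loci or pairs tested. Settings that moved a share by over 1.5 times were as follows. Lower loci were 9.44%, but 3.33% under spike-in scaling, 15.6% under quantile normalization and 14.7% without loci overlapping a RefSeq transcript (chosen after seeing the data). Loci over 4 fold were 35.0%, but 22.2% at a pseudocount of 10, 16.7% by limma treat and 22.9% without RefSeq overlaps. Pairs with the locus below its gene were 4.83%, but 7.59% with the replicate number as a block and 8.33% at gaps up to 1000 bp, and 2.76% to 6.21% when a library was left out, the lowest without chromatin replicate 1 (4 pairs). Processing genes were 40.4% higher and 19.1% lower, but 61.7% and 0% under spike-in scaling (no gene lower there by limma, with 9 lower in the deposited scaling and 13 lower by edgeR and by DESeq2), and 29.8% lower under quantile normalization. The cause of these moves was not tested. The other 132 values stayed within 1.5 times.

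Without 1 library, higher loci ranged from 38.9% to 42.8%, lower from 8.89% to 10.6%, over 4 fold from 31.1% to 32.8% and pairs above their gene from 43.4% to 53.8%. edgeR gave 71 higher and 17 lower loci, and DESeq2 76 and 19 of 168. Per the paper, libraries of both fractions came from independent cultures, so same-numbered libraries probably share a culture. Each library correlated best with its own number (0.0975, 0.0883 and 0.222, others -0.138 to 0.0606). The main fits left this pairing out, because those correlations were not all above 0.1. That limit was a choice and does not show that the fractions are unpaired. The replicate block, which keeps the pairing, gave 92 higher and 21 lower loci, 90 pairs above and 11 below, and with edgeR 75 and 21. Each of these counts was larger than without the block. No accession row of the short-read table overlapped a locus on its strand, so leaving such loci out could not change a result and is no check.

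Signs turned at named loci, all but 1 of them not called. Under spike-in scaling the log2 fold change became 0.60 past Krcc1, 0.27 past D630036H23Rik, 0.43 past Rps13, 0.56 at the nearer Itga10 locus, and 0.66 and 0.24 at the farther and nearer Ide loci. Under quantile normalization it was 0.10 past Krcc1 and -0.24 at the farther Itga10 locus. Leaving out 1 library gave -0.49 to 0.21 past Krcc1 and 0.00 to 1.98 past Sf3a3. It gave -0.54 to 0.19 at the nearer and -0.25 to 0.76 at the farther Itga10 locus, and -0.31 to 0.12 at the farther Ide locus. Past Ak9 the call was gained in 5 settings.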
